A study of Mus musculus with 12 samples.

Results

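RNA levels of 8 plasma membrane amino acid transporter genes were followed in marginal zone B cells of the mouse, splenic B lymphocytes that answer blood-borne antigen. The genes were taken as a list by name (Slc7a5, Slc3a2, Slc7a6, Slc7a1, Slc1a5, Slc1a4, Slc38a1 and Slc38a2). The list was drawn up with earlier results of these data known, though no measured value entered the rule, and 8 of 8 genes were present among the 24346 gene symbols of the deposited files. The cells were wild type or Trpm5-/-, that is, without functional Trpm5, a cation channel gated by intracellular calcium, and the study asked how this channel bears on calcium signalling after lipopolysaccharide (LPS). Cells of both genotypes were kept for 4 h without stimulus, with LPS at 10 µg/mL, which acts through Toll-like receptor signalling, or with an antibody to IgM (anti-IgM) at 10 µg/mL, which cross-links the B cell receptor. Each of the 6 groups held 2 libraries. The strain, age and sex of the mice, the part of Trpm5 deleted and the isolation of the cells are not given in the sources at hand. Nor is it stated whether the 2 libraries of a group are different animals, different cultures or repeats of one preparation. The p-values therefore reflect only how far such libraries lie apart, a spread that may be technical.

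A resting lymphocyte that begins to grow takes up more amino acids, both as building blocks for protein and as a signal that the kinase complex mTORC1 reads at the lysosome. Large neutral amino acids such as leucine enter mainly through LAT1, a pair of the light chain Slc7a5 and the heavy chain Slc3a2 (CD98), and LAT1 exchanges them for glutamine that other carriers have brought in. Glutamine and small neutral amino acids are carried by Slc1a5 (ASCT2), Slc1a4 (ASCT1) and the sodium-coupled carriers Slc38a1 (SNAT1) and Slc38a2 (SNAT2), while the cationic amino acids arginine and lysine use Slc7a1 (CAT1) and, with Slc3a2 as heavy chain, Slc7a6 (y+LAT2).

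On the mm10 build the genes lie on 6 chromosomes according to the GENCODE M21 annotation, with identifiers from the same source. Slc7a5 (ENSMUSG00000040010) lies at chr8:121881150-121907694 on the minus strand and Slc7a6 (ENSMUSG00000031904) at chr8:106168857-106198706 on the plus strand. Slc3a2 (ENSMUSG00000010095) lies at chr19:8706882-8723369, Slc1a4 (ENSMUSG00000020142) at chr11:20302180-20332713 and Slc7a1 (ENSMUSG00000041313) at chr5:148327410-148399904, each on the minus strand, and Slc1a5 (ENSMUSG00000001918) lies at chr7:16781340-16798274 on the plus strand. Slc38a1 (ENSMUSG00000023169, chr15:96571418-96642913) and Slc38a2 (ENSMUSG00000022462, chr15:96687392-96699730) lie next to each other on the minus strand of chromosome 15. All 8 are protein-coding, and of these only Slc7a5 overlaps another annotated gene, Gm20388 on the opposite strand, with which it shares 0 exon bases.

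Because most of these genes rose together after stimulation, the 250 bases before their start sites were read for short promoter motifs in the RefSeq-based promoter table (GRCm38.p6 build), in which 5 of the 8 genes had an entry. The GC box (GGGCGG, a common binding sequence of Sp-family factors, either strand) was present before at least 1 start of 5 of 5 genes, against 35.4% of the 27025 genes of the table. The shares of the table count its genes whether or not they are expressed in these cells. A share over expressed genes was not computed, so the GC box is not shown to be particular to the transporters. The E-box of MYC and its partners (CACGTG) was found in 0 of 5 against 6.86% of all genes, the amino acid response element bound by ATF4 (searched as TGATGNAA) in 0 of 5 against 3.91%, and the cyclic AMP response element (TGACGTCA) in 0 of 5 against 1.77%. CCAAT was found in 1 of 5, Slc1a4, against 37.5%, and TATAAA in 1 of 5, at the second start of Slc7a1, against 14.3%. None of these motifs contains another, and a window without a match says only that these letters are not in it. Shown here are the windows that lie wholly outside annotated genes, for a neutral amino acid carrier (Slc1a4) and both cationic carriers (Slc7a1 and the first of the starts of Slc7a6), 5′ to 3′ in the direction of transcription with GC boxes and CCAAT boxes in capitals on whichever strand they were found (CCGCCC and ATTGG are their reverse complements). The Slc1a4 window is chr11:20332714-20332963 on the minus strand, that of Slc7a1 is chr5:148399905-148400154 on the minus strand and that of Slc7a6 is chr8:106168604-106168853 on the plus strand.
Slc1a4: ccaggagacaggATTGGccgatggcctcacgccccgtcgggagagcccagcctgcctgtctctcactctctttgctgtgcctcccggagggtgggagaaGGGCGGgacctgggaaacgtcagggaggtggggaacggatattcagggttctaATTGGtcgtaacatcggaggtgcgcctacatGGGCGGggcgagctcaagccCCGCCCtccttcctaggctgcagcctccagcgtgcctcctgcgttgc
Slc7a1: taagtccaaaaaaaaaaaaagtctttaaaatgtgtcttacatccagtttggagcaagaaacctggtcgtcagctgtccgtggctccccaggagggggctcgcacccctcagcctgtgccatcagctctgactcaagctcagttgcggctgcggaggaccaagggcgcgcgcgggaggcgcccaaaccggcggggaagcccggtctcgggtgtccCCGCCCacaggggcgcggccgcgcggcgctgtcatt
Slc7a6: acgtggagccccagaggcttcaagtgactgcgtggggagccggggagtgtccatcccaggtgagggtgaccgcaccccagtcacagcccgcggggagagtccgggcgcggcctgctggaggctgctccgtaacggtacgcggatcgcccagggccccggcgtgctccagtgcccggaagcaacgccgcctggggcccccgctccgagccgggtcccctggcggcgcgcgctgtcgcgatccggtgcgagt
The Slc1a4 window held 3 GC boxes and 2 CCAAT boxes, the Slc7a1 window 1 GC box and the Slc7a6 window 0 matches to any of the motifs searched.

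Levels are given in FPKM, a read density per transcript length on a scale set for each library, so that genes can be compared with one another. The median ratio of a library to the geometric mean of all was 1.008 to 1.015. The values may thus have been scaled between libraries and not per sequenced total. FPKM summed to between 563461 and 805373 per library, highest in the LPS libraries, and 12737 to 13483 symbols were above 0. Sequencing depth relative to the first wild-type unstimulated library, read from the smallest steps between low values, ran from 0.645 to 1.06. If values were scaled between libraries, this number is a scaling factor and not a depth in reads. Trpm5 itself lay between 0.0196 and 0.434 FPKM in the 6 wild-type libraries and between 0 and 0.0303 FPKM in the 6 Trpm5-/- libraries, 3 of which were listed at 0. The wild-type values of 0.0196 (unstimulated replicate 1) and 0.0241 (anti-IgM replicate 2) fell inside the Trpm5-/- range, so at these levels the transcript checks the genotype labels only in part. The marginal zone B markers were present (their 7 genes summed to 520 FPKM or more in each library). Of other cell types, 5 of 8 T cell genes (Cd3d, Cd3e, Cd3g, Cd4 and Cd8a) stayed under 1 FPKM in all 12 libraries, but the 8 summed to 14.9 to 72.1 FPKM, mostly Lck (13.5 to 66.2). For macrophages 3 of 10 genes (Csf1r, Mertk and Cd14) stayed under 1 FPKM with a sum of 18.8 to 40.8, and for dendritic cells 4 of 6 (Itgax, Xcr1, Siglech and Clec9a) with a sum of 7.63 to 76.7, mostly Zbtb46 (5.27 to 70.2). The erythroid sum was larger, 246 to 709 FPKM over 6 genes, of which 0 stayed under 1 FPKM. In wild-type LPS libraries it was 452 to 537 FPKM, beside 520 to 540 for the marginal zone genes. Tests used limma on log2(FPKM + 1) over 10797 genes that reached 1 FPKM in 2 or more libraries, all 8 transporters among them. Differences with a Benjamini-Hochberg adjusted p under 0.05 were called, and a log2 difference on this scale understates the change of a gene of low level.

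In unstimulated wild-type cells Slc1a5 was the most abundant of the 8 transcripts and Slc1a4, its close relative, the least. The mean levels were 156 FPKM for Slc1a5, 79.9 for Slc38a2, 66.1 for Slc3a2, 29.7 for Slc38a1, 21.5 for Slc7a5, 13.7 for Slc7a6, 10.8 for Slc7a1 and 2.61 for Slc1a4, and no neighbours in that order had overlapping library values. Slc1a5 stayed first and Slc1a4 last in each of the 6 groups, while the genes between them changed places. With LPS or anti-IgM, Slc3a2 moved to second place in both genotypes, and Slc7a5 stood above Slc38a1, which it had passed without stimulus only in the Trpm5-/- mean (30.1 against 29.6 FPKM, with overlapping libraries). Neighbours in the order overlapped in 3 places only: Slc38a2 with Slc3a2 and Slc7a5 with Slc38a1 in unstimulated Trpm5-/- cells, and Slc38a2 with Slc7a5 in Trpm5-/- cells given LPS. The summed FPKM of the 8 genes was 380 ± 9.60 (SD, n = 2) in unstimulated, 659 ± 4.5 in LPS-treated and 776 ± 13.9 in anti-IgM-treated wild-type cells. In Trpm5-/- cells the corresponding sums were 403 ± 2.65, 685 ± 9.78 and 787 ± 0.651. These sums are not scaled to the FPKM total of a library, which also rose. In wild-type cells that total was 597308 and 563461 without stimulus, 765468 and 755419 with LPS and 620848 and 639364 with anti-IgM.

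**Figure D1:**
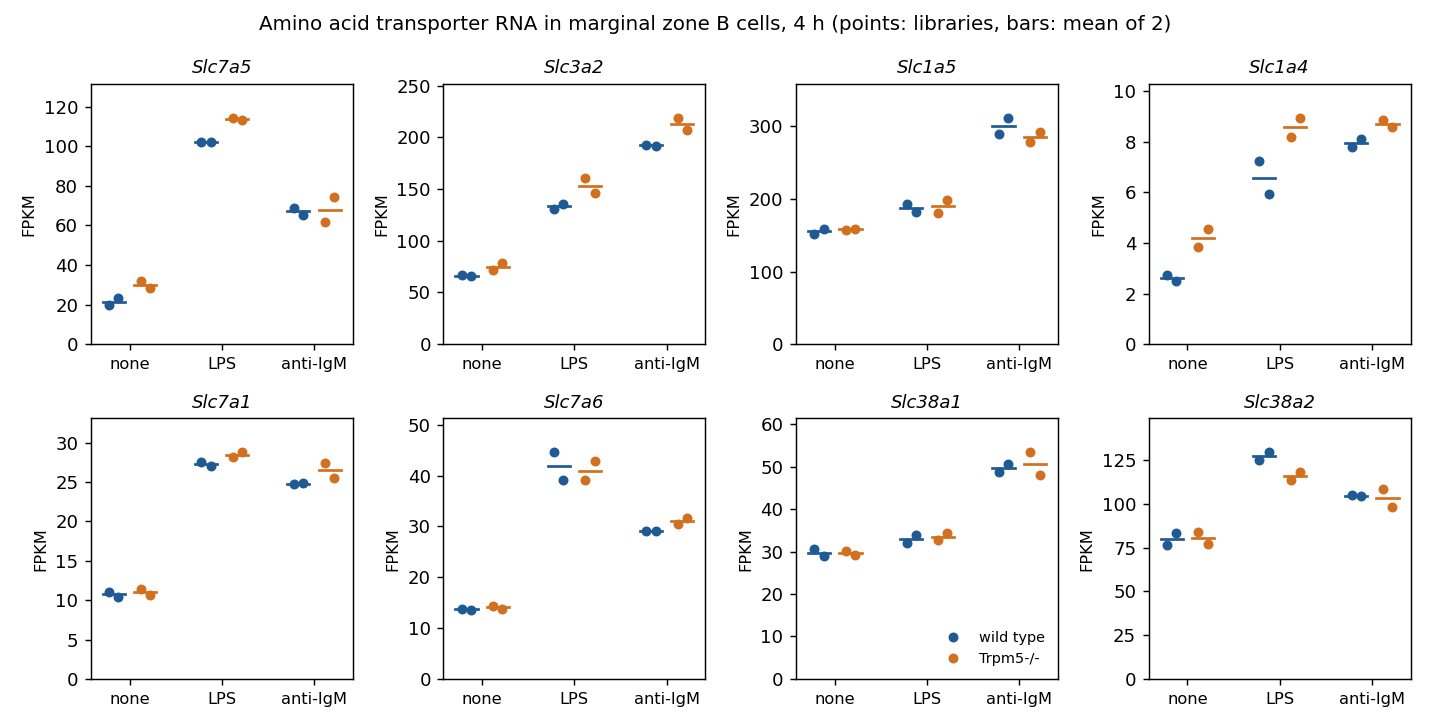
FPKM of the 8 transporter genes in each library (points, wild type in blue and Trpm5-/- in orange) and the mean of the 2 libraries of a group (bars), without stimulus, with LPS and with anti-IgM for 4 h. Each axis starts at 0 and has its own scale, and in each panel the stimulated libraries lie above the unstimulated ones of the same genotype.

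Both stimuli raised nearly the whole list. LPS raised 7 of the 8 genes in wild-type cells, where 35% of all genes tested rose, 34.4% fell and 69.4% were thus called, and 7 of 8 in Trpm5-/- cells, where 34.8% rose, 33.8% fell and 68.7% were called. Anti-IgM raised 8 of 8 in wild-type cells, against 27.7% of all genes tested that rose, 20.9% that fell and 48.6% called, and 8 of 8 in Trpm5-/- cells, against 26.9% that rose, 23% that fell and 49.9% called. The median log2 difference over the 8 genes was 1.03 with LPS and 1.08 with anti-IgM in wild-type cells, where the medians over all genes tested were -0.02 and 0.02. In Trpm5-/- cells it was 0.96 with LPS and 1.0 with anti-IgM, against -0.02 and 0.00. In each of these 4 comparisons the stimulated and unstimulated libraries of all 8 genes did not overlap, which was also so for 84.6% of all genes tested with LPS and 74.3% with anti-IgM in wild-type cells and for 83.3% and 75.8% in Trpm5-/- cells. The LPS and anti-IgM responses of a genotype share their unstimulated libraries, so they are given side by side and not as separate evidence.

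Marker levels moved with the stimuli as well. In wild-type cells the nuclear RNAs Malat1 and Neat1 summed to 389 to 432 FPKM without stimulus, 143 to 168 with LPS and 259 to 294 with anti-IgM. They were 2 of 5 genes listed for RNA quality, and the others (mt-Nd1, mt-Co1 and mt-Cytb) had no values. Whether the 2 report RNA quality or a regulated change was not tested. The 7 pan-B genes summed to 5459 to 5698, 3478 to 3547 and 2081 to 2096 FPKM, and the 7 marginal zone genes to 1363 to 1411, 520 to 540.0 and 1614 to 1629. The dendritic cell genes went from 9.21 to 9.63 FPKM without stimulus to 71.6 to 76.7 with LPS, and the T cell genes from 25.6 to 26.3 to 69.0 to 72.1 with anti-IgM, while the T cell genes were lower with LPS (15.7 to 17.2). The 5 plasma cell genes summed to 155 to 160 FPKM without stimulus, 280 to 301 with LPS and 267 to 282 with anti-IgM. In wild-type cells LPS raised 1 of these 5 and lowered 4, against 35% and 34.4% of all genes tested. Anti-IgM raised 2 and lowered 1, against 27.7% and 20.9%. The higher LPS sum thus does not reflect most of these genes. For the 6 erythroid genes the sums were 683 to 709, 452 to 537 and 377 to 520. For the 6 stromal and endothelial genes they were 42.1 to 48.4, 12.7 to 13.4 and 5.74 to 6.42. Of these 6, 5 (Cdh5, Col1a1, Col1a2, Col3a1 and Pdgfra) stayed under 1 FPKM in all 12 libraries, which left Pecam1 as the 1 gene tested. Each of these marker sums in Trpm5-/- cells lay on the same side of its unstimulated values. Their part in the transporter responses was not tested.

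Slc7a5, the LAT1 light chain, moved furthest with LPS. Its level was 19.8 and 23.2 FPKM in the unstimulated wild-type libraries, 102 and 102 with LPS and 68.9 and 65.3 with anti-IgM. In Trpm5-/- cells it was 32.0 and 28.3 without stimulus, 114 and 113 with LPS and 61.7 and 74.2 with anti-IgM. The LPS libraries were the highest in both genotypes, the anti-IgM libraries stood between, and no 2 conditions overlapped within a genotype. LPS raised it 4.75-fold in wild-type cells (log2 difference 2.2 ± 0.10 SE, adjusted p = 1.82e-08, percentile 98.5 among all genes tested) and 3.78-fold in Trpm5-/- cells (1.89 ± 0.10, adjusted p = 5.78e-08). Anti-IgM raised it 3.12-fold in wild-type cells (1.60 ± 0.10, adjusted p = 5.56e-07) and 2.25-fold in Trpm5-/- cells (1.14 ± 0.10, adjusted p = 6.67e-06).

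Slc3a2, the heavy chain that carries LAT1 and the y+LAT carriers to the cell surface, had the opposite order of stimuli. It measured 66.7 and 65.5 FPKM in unstimulated wild-type cells, 131 and 136 with LPS and 193 and 192 with anti-IgM, and 71.3 and 78.4, 161 and 146, and 219 and 208 in the same conditions in Trpm5-/- cells. The anti-IgM libraries were the highest throughout and no conditions overlapped. Anti-IgM raised it 2.91-fold in wild-type (log2 difference 1.53 ± 0.06, adjusted p = 6.58e-08, percentile 98.8) and 2.85-fold in Trpm5-/- cells (1.5 ± 0.06, adjusted p = 8.87e-08). The LPS rise was 2.02-fold (1.0 ± 0.06) and 2.05-fold (1.02 ± 0.06).

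The cationic carriers rose under both stimuli. Slc7a6, which exchanges arginine for neutral amino acids, went from 13.8 and 13.6 FPKM in unstimulated wild-type cells to 44.6 and 39.2 with LPS and 29.2 and 29.0 with anti-IgM, and from 14.4 and 13.8 to 39.0 and 42.9 and to 30.5 and 31.6 in Trpm5-/- cells. LPS was the stronger stimulus for it in both genotypes, with rises of 3.05-fold (log2 difference 1.54 ± 0.08) and 2.90-fold (1.47 ± 0.08) against 2.12-fold (1.03 ± 0.08) and 2.2-fold (1.08 ± 0.08) for anti-IgM. Slc7a1, the main arginine and lysine carrier of most cells, measured 11.1 and 10.4 FPKM without stimulus, 27.5 and 27.0 with LPS and 24.7 and 24.9 with anti-IgM in wild-type cells, and 11.4 and 10.7, 28.2 and 28.8, and 27.4 and 25.5 in Trpm5-/- cells. LPS and anti-IgM raised it 2.53-fold and 2.31-fold in wild-type cells and 2.57-fold and 2.39-fold in Trpm5-/- cells.

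Among the carriers of glutamine and small neutral amino acids, Slc1a5 answered mainly to anti-IgM. Its wild-type levels were 152 and 159 FPKM without stimulus, 193 and 183 with LPS and 289 and 312 with anti-IgM, and its Trpm5-/- levels were 157 and 159, 181 and 199, and 278 and 293. The anti-IgM libraries stood clear of all others, while the LPS libraries lay only slightly above the unstimulated ones. Anti-IgM raised it 1.93-fold (log2 difference 0.94 ± 0.06, adjusted p = 9.93e-07) and 1.80-fold (0.85 ± 0.06). The LPS rises of 1.21-fold (0.27 ± 0.06, adjusted p = 0.00351) and 1.20-fold (0.26 ± 0.06, adjusted p = 0.00411) turn into differences of -0.28 (adjusted p = 0.00696) and -0.27 (adjusted p = 0.00777) when the values are quantile normalized, so the direction under LPS rests on the scaling between libraries.

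Slc1a4, which carries serine, alanine and threonine, rose from 2.72 and 2.49 FPKM to 7.24 and 5.93 with LPS and 7.78 and 8.09 with anti-IgM in wild-type cells. In Trpm5-/- cells it rose from 3.82 and 4.54 to 8.20 and 8.96 and to 8.86 and 8.57. The stimulated libraries were above the unstimulated ones in both genotypes and the 2 stimuli did not overlap in wild-type cells but did in Trpm5-/- cells. The log2 differences were 1.07 ± 0.13 with LPS and 1.31 ± 0.13 with anti-IgM in wild-type cells and 0.89 ± 0.13 and 0.91 ± 0.13 in Trpm5-/- cells, all 4 called.

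The paired SNAT genes on chromosome 15 differed in the stimulus to which they rose most. Slc38a1 was 30.6 and 28.9 FPKM without stimulus, 32.1 and 34 with LPS and 48.7 and 50.7 with anti-IgM in wild-type cells, and 30.0 and 29.2, 32.6 and 34.4, and 53.4 and 48.1 in Trpm5-/- cells. It rose 1.67-fold and 1.71-fold with anti-IgM (log2 differences 0.72 ± 0.07 and 0.76 ± 0.07), and its LPS differences of 0.15 ± 0.07 (adjusted p = 0.0951) and 0.17 ± 0.07 (adjusted p = 0.0542) were not called. Slc38a2, the member of the pair known to be induced when amino acids run short, was 76.5 and 83.3 FPKM without stimulus, 125 and 129 with LPS and 105 and 104 with anti-IgM in wild-type cells, and 84.2 and 77.0, 114 and 118, and 109 and 98.3 in Trpm5-/- cells. It rose 1.59-fold and 1.44-fold with LPS (0.67 ± 0.07 and 0.52 ± 0.07) and 1.31-fold and 1.28-fold with anti-IgM (0.39 ± 0.07 and 0.36 ± 0.07). With quantile normalization the LPS call in wild-type cells held, but the LPS call in Trpm5-/- cells (0.07, adjusted p = 0.451) and the anti-IgM calls (0.19, adjusted p = 0.0665 in wild type and 0.12, adjusted p = 0.213 in Trpm5-/-) were lost.

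**Figure D2:**
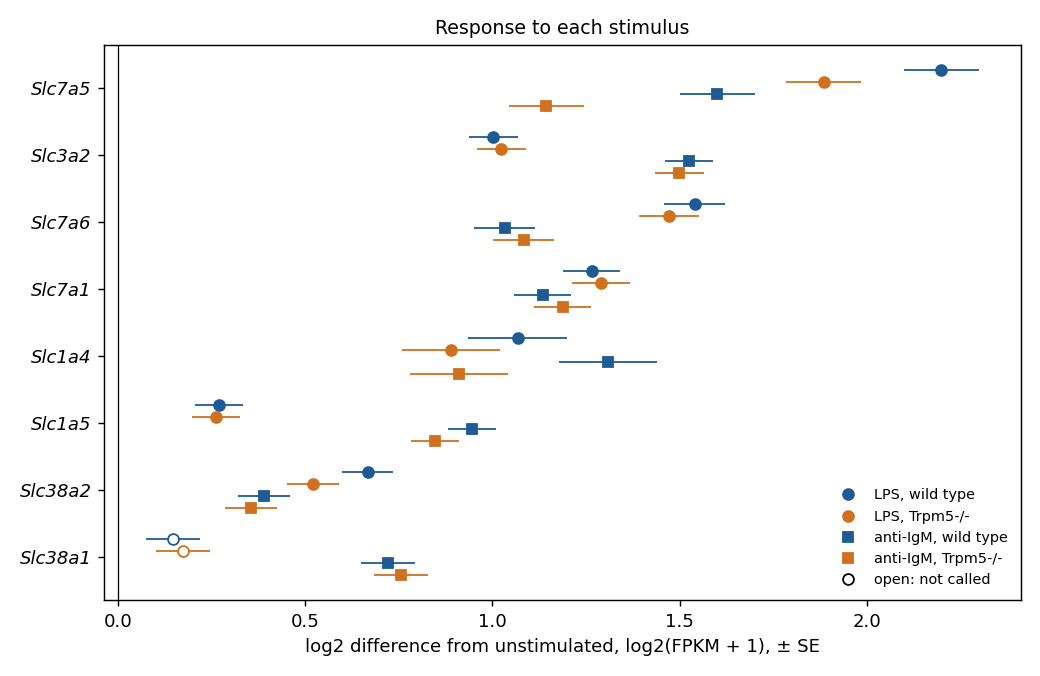
Log2 differences (log2(FPKM + 1), ± SE) of the 8 transporter genes between stimulated and unstimulated cells, for LPS and anti-IgM in each genotype. Slc7a5, Slc7a6 and Slc38a2 lie further right with LPS, and Slc3a2, Slc1a5 and Slc38a1 further right with anti-IgM.

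Set directly against each other, the stimuli split the list by gene. In wild-type cells 3 of the 8 genes were higher with LPS and 3 were higher with anti-IgM, against 27.7% and 25% of all genes tested. Slc7a5 (log2 difference, LPS minus anti-IgM, 0.60 ± 0.10, adjusted p = 0.000600), Slc7a6 (0.51 ± 0.08, adjusted p = 0.000444) and Slc38a2 (0.28 ± 0.07, adjusted p = 0.00686) were the genes higher with LPS. Slc1a5 (-0.68 ± 0.06, adjusted p = 1.15e-05), Slc38a1 (-0.58 ± 0.07, adjusted p = 8.55e-05) and Slc3a2 (-0.52 ± 0.06, adjusted p = 7.70e-05) were those higher with anti-IgM. In Trpm5-/- cells, where 28.3% of all genes tested were higher with LPS and 23.6% with anti-IgM, the called transporters were Slc7a5 (0.74) and Slc7a6 (0.39) in one direction and Slc1a5 (-0.59), Slc38a1 (-0.58) and Slc3a2 (-0.48) in the other. Slc38a2 differed by 0.17 ± 0.07 there (adjusted p = 0.0682), and its wild-type call was lost with quantile normalization (0.01, adjusted p = 0.921). Slc7a1 (0.13 ± 0.08 and 0.10 ± 0.08) and Slc1a4 (-0.24 ± 0.13 and -0.02 ± 0.13) were not called in wild-type or Trpm5-/- cells. All 8 genes had non-overlapping LPS and anti-IgM libraries in wild-type cells and 7 of 8 in Trpm5-/- cells, against 76.9% and 75.4% of all genes tested (52.7% and 51.9% were called).

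Ratios of FPKM within a library show how the make-up of the transporter transcripts changed with the stimulus. The ratio of Slc7a5 to its heavy chain Slc3a2 was 0.297 and 0.355 in the unstimulated wild-type libraries, 0.779 and 0.752 with LPS and 0.357 and 0.341 with anti-IgM. In Trpm5-/- libraries it was 0.449 and 0.361, 0.712 and 0.778, and 0.282 and 0.358. The LPS libraries of both genotypes stood apart, and the anti-IgM ratios overlapped the unstimulated ones in wild-type cells and lay below them in Trpm5-/- cells. Of the 6 light chains known to pair with Slc3a2, Slc7a5 and Slc7a6 were the most abundant, Slc7a7 (y+LAT1) lay between 5.14 and 14.2 FPKM, Slc7a8 reached at most 0.395 FPKM and Slc7a11 at most 0.270 FPKM, and Slc7a10 was listed at 0 in all 12 libraries. The summed light chains amounted to 0.617 ± 0.044 of Slc3a2 (SD, n = 2) in unstimulated, 1.13 ± 0.060 in LPS-treated and 0.539 ± 0.011 in anti-IgM-treated wild-type cells, and 0.688 ± 0.071, 1.10 ± 0.077 and 0.516 ± 0.064 in Trpm5-/- cells. These are ratios of RNA and give no stoichiometry of the proteins.

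For the SNAT pair, Slc38a2 was 2.69 ± 0.27 times Slc38a1 without stimulus, 3.85 ± 0.05 times with LPS and 2.11 ± 0.08 times with anti-IgM in wild-type cells, and 2.72 ± 0.12, 3.46 ± 0.03 and 2.04 ± 0.01 times in Trpm5-/- cells. The library values of the 3 conditions did not overlap in either genotype. Slc1a5 made up 41.0% of the summed FPKM of the 8 genes in unstimulated wild-type cells, 28.5% with LPS and 38.7% with anti-IgM, and Slc7a5 made up 5.66%, 15.5% and 8.65%.

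**Figure D3:**
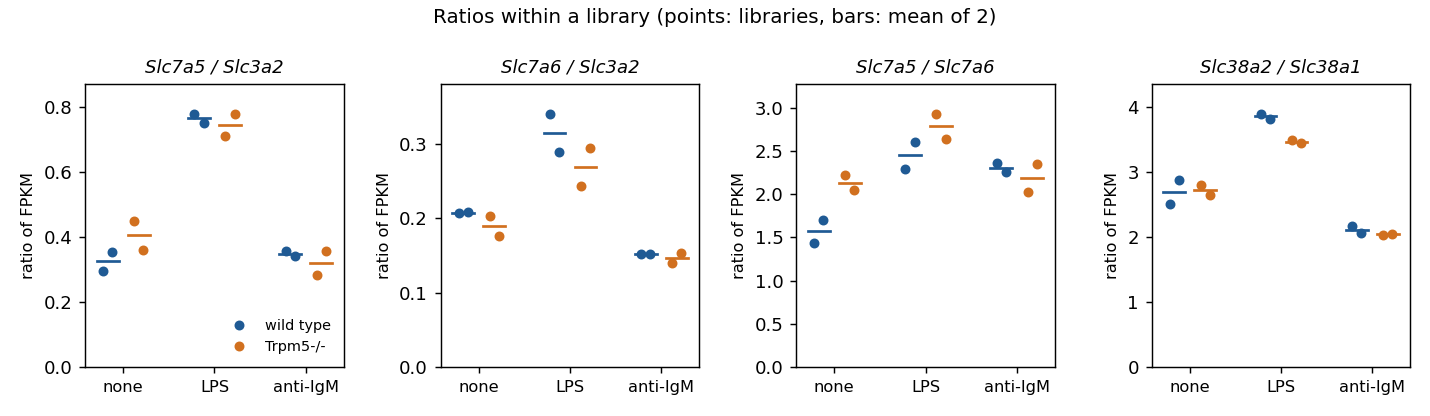
Within-library FPKM ratios by condition (points are libraries, wild type in blue and Trpm5-/- in orange, bars are means of 2). The Slc7a5 to Slc3a2 ratio is 0.712 to 0.779 in the 4 LPS libraries and at most 0.449 in the other 8.

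Between genotypes the differences were small and concerned Slc7a5, Slc3a2 and Slc1a4. Without stimulus, 2 of the 8 genes were higher in Trpm5-/- cells and 0 lower, against 4.45% of all genes tested that were higher, 1.66% that were lower and 6.11% called in all. Slc1a4 was 1.60-fold higher (log2 difference 0.52 ± 0.13, adjusted p = 0.0475) and Slc7a5 1.40-fold higher (0.47 ± 0.10, adjusted p = 0.0247), with no overlap between the genotypes' libraries in the values given above. The Slc1a4 call was lost in 16 of 20 alternative analyses, the omission of any 1 of the 12 libraries included, over which the difference ran from 0.42 to 0.66. The Slc7a5 call was lost in 5 of 20, among them without the first wild-type and without either Trpm5-/- unstimulated library, with differences from 0.36 to 0.58. Slc3a2 differed by 0.17 ± 0.06 (adjusted p = 0.161), also without overlap, and the other 5 genes by between -0.01 and 0.04.

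With LPS, 0 of 8 transporters were called between the genotypes, against 3.59% of all genes tested (1.82% higher and 1.78% lower), and with anti-IgM 0 of 8, against 3.83% (1.91% higher and 1.92% lower). At an unadjusted p under 0.05, limma gave 16.7% of all genes tested with LPS and 19.6% with anti-IgM. Among the transporters it gave 2 of 8 genes with LPS, Slc3a2 (0.20 ± 0.06, adjusted p = 0.147) and Slc1a4 (0.34 ± 0.13, adjusted p = 0.218), and 1 of 8 with anti-IgM, Slc3a2 (0.15 ± 0.06, adjusted p = 0.243). The libraries of the genotypes did not overlap for 5 of 8 genes with LPS, 4 of 8 with anti-IgM and 4 of 8 without stimulus, near the 45.8%, 51.7% and 49.5% of all genes tested. With LPS 2 of 8 genes had a negative difference, Slc7a6 (-0.03) and Slc38a2, the latter at 114 and 118 FPKM in Trpm5-/- against 125 and 129 in wild-type libraries (-0.13 ± 0.07, adjusted p = 0.386). Averaged over the 3 conditions, 3 of 8 transporters were higher in Trpm5-/- cells, against 10.2% of all genes tested that were higher, 5.88% that were lower and 16% called in all. These were Slc1a4 (0.33 ± 0.08, adjusted p = 0.0160), Slc7a5 (0.21 ± 0.06, adjusted p = 0.0329) and Slc3a2 (0.17 ± 0.04, adjusted p = 0.0114). Slc3a2 and Slc1a4 were higher in each of the 6 Trpm5-/- libraries than in both wild-type libraries of the same condition. How many of all genes tested do so was not counted, and both genes had already been called on these values. In single conditions 45.8% to 51.7% of all genes tested did not overlap, in either direction. The Slc7a5 average combines 0.47 without stimulus, 0.16 with LPS and 0.01 with anti-IgM, and its call was lost in 12 of 20 alternatives. The Slc3a2 call was lost in 1 of 20, quantile normalization (0.11, adjusted p = 0.0696).

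The responses themselves were not called as different between the genotypes for any of the 8 genes, either for LPS (0.102% of all genes tested called) or for anti-IgM (0.0278% called). Slc7a5 and Slc1a4 differed most between the genotypes in their response to anti-IgM. The Slc7a5 anti-IgM response was 0.46 ± 0.14 smaller on the log2 scale in Trpm5-/- cells (difference of responses -0.46, unadjusted p = 0.00909, adjusted p = 0.511) and its LPS response differed by -0.31 ± 0.14 (unadjusted p = 0.0514, adjusted p = 0.484). For Slc1a4 the anti-IgM responses differed by -0.40 ± 0.19 (unadjusted p = 0.0580, adjusted p = 0.646). Which of the 2 differed more rests on the pseudocount, since with 0.1 in place of 1 the values were -0.47 for Slc7a5 and -0.52 for Slc1a4. For Slc7a5 the wild-type and Trpm5-/- means were 21.5 and 30.1 FPKM without stimulus and 67.1 and 67.9 with anti-IgM, and for Slc1a4 they were 2.61 and 4.18 FPKM and 7.94 and 8.71. A p above the threshold does not show that the responses were equal.

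**Figure D4:**
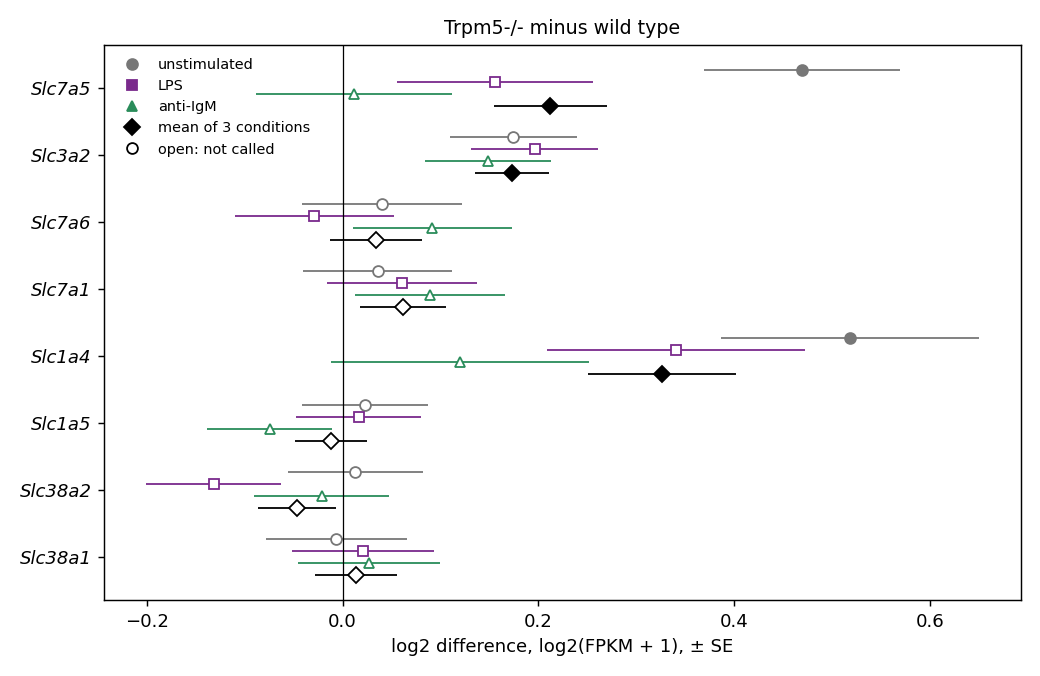
Log2 differences between Trpm5-/- and wild-type cells (log2(FPKM + 1), ± SE) for each transporter gene without stimulus, with LPS, with anti-IgM and averaged over the 3 conditions. Filled symbols are called at an adjusted p under 0.05 and open symbols are not, and filled symbols appear for Slc7a5, Slc3a2 and Slc1a4 only.

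Marker levels also moved with genotype, against 4.45% of all genes tested called higher and 1.66% called lower without stimulus. In unstimulated cells the 5 plasma cell genes (Sdc1, Jchain, Prdm1, Xbp1, Irf4) summed to 155 to 160 FPKM in wild-type and 201 to 211 in Trpm5-/- libraries, with 3 of 5 called higher. Over the same libraries the 7 marginal zone genes summed to 1363 to 1411 and 1784 to 1820 FPKM (1 of 7 called higher, Cd9), the 7 pan-B genes to 5459 to 5698 and 5241 to 5243 (0 called), the 6 erythroid genes to 683 to 709 and 470 to 509 (0 called), and the 10 macrophage genes to 33.1 to 40.8 and 26.0 to 26.8 (1 called lower). Malat1 and Neat1 summed to 389 to 432 FPKM in wild-type and 297 to 305 in Trpm5-/- libraries, and both were called lower. Averaged over the 3 conditions, where 10.2% of all genes tested were higher and 5.88% lower, 5 of 7 marginal zone and 3 of 5 plasma cell genes were higher, and 5 of 7 pan-B genes, 3 of 6 erythroid genes and both nuclear RNAs were lower. Of 6 tested macrophage genes 1 was higher and 2 lower. Their part in the transporter differences was not tested. In such bulk libraries fewer cells of a type and less RNA per cell cannot be told apart.

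Other genes that handle amino acids moved in both directions. Of 48 further amino acid transporter genes in the files, 17 passed the filter on low values, so their counts describe expressed genes only. LPS raised 3 and lowered 7 of the 17 in wild-type cells (median log2 difference -0.22), and anti-IgM raised 2 and lowered 5 (median -0.13). Of all genes tested LPS raised 35% and lowered 34.4%, and anti-IgM raised 27.7% and lowered 20.9%. The 7 and 5 of 17 lowered stood close to these shares. Slc7a3, a second cationic carrier of the CAT family, rose most with LPS, from 1.22 and 0.719 FPKM to 6.71 and 5.95 (1.90, adjusted p = 7.26e-06). Slc43a2 (LAT4), which lets large neutral amino acids pass without exchange, fell from 7.20 and 8.45 FPKM to 1.34 and 1.31 with LPS (-1.92) and to 1.20 and 1.52 with anti-IgM (-1.90). The lysosomal carriers Ctns (-1.57), which exports cystine, Pqlc2 (-1.39), which exports cationic amino acids, and Slc38a9 (-1.14), an arginine sensor for mTORC1, fell with LPS, and Slc38a9 also fell with anti-IgM (-0.60).

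Slc7a7, a light chain of Slc3a2 beside Slc7a5 and Slc7a6, was the further transporter with a called genotype difference under LPS, at 14.2 and 11.6 FPKM in Trpm5-/- against 7.02 and 6.62 in wild-type libraries (0.82 ± 0.13, adjusted p = 0.00881). This call was lost without wild-type LPS replicate 2, without Trpm5-/- LPS replicate 1 and in the fit of the compared libraries alone. Averaged over the conditions it was also higher in Trpm5-/- cells (0.56 ± 0.08, adjusted p = 0.00116), a call kept in 20 of 20 alternatives. Of the other called averages, Slc7a3 was higher (0.39) and Slc38a6 lower (-0.42), with calls lost in 11 and 14 of 20 alternatives. On the average 2 of the 17 further transporters tested were thus higher and 1 lower, close to the 10.2% and 5.88% of all genes tested. With LPS 1 was higher and 0 lower, against 1.82% and 1.78%. Without stimulus and with anti-IgM 0 of the 17 were called, against 6.11% and 3.83%.

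The amino acid response, in which the kinase GCN2 senses uncharged tRNA and the factor ATF4 induces transporters together with serine, glycine and asparagine synthesis, was described over 25 genes, of which 21 passed the filter. With anti-IgM 17 of 21 rose and 0 fell in wild-type cells (median 0.93) and 15 rose and 0 fell in Trpm5-/- cells (median 0.70), where 27.7% and 26.9% of all genes tested rose and 20.9% and 23% fell. With LPS 13 rose and 3 fell in wild-type (median 0.65) and 12 rose and 3 fell in Trpm5-/- cells (median 0.51), where 35% and 34.8% of all genes tested rose and 34.4% and 33.8% fell. Shmt2 and Mthfd2, the mitochondrial one-carbon enzymes, rose by 1.57 and 1.75 with LPS and by 1.33 and 1.31 with anti-IgM in wild-type cells. Ddit3 (CHOP), a stress-induced factor, fell with LPS (-0.70) and rose with anti-IgM (0.99). Atf4 RNA rose with both, from 105 and 104 FPKM to 186 and 217 with LPS (0.94) and to 152 and 154 with anti-IgM (0.55) in wild-type cells.

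Without stimulus, 7 of these 21 genes were higher in Trpm5-/- cells and 0 lower, against 4.45% of all genes tested that were higher, and the list's median difference was 0.19 against 0.02 over all genes tested. Shmt2 was 117 and 119 FPKM in Trpm5-/- against 86.6 and 86.0 in wild-type libraries (0.45 ± 0.04, adjusted p = 0.000614), and Phgdh, the first enzyme of serine synthesis, 210 and 212 against 159 and 160 (0.41 ± 0.05, adjusted p = 0.00172). Eif4ebp1, a translation repressor under mTORC1, was 69.2 and 70.0 against 53.3 and 53.9 FPKM (0.37 ± 0.05, adjusted p = 0.00439). No genotype ranges of these 3 genes overlapped, and their calls were lost only when the unstimulated libraries were fitted alone. Chac1, a glutathione-degrading ATF4 target, was 6.09 and 7.92 against 0.960 and 3.28 FPKM (1.46 ± 0.29, adjusted p = 0.0176), and its call was lost without either Trpm5-/- library. Psat1 (0.48), Mthfd2 (0.41) and Atf3 (0.53) made up the 7, with calls lost in 5, 4 and 5 of 20 alternatives. Atf4 itself (0.12 ± 0.08, adjusted p = 0.475) and Asns, the asparagine synthetase (-0.21 ± 0.16, adjusted p = 0.511), were not called. With LPS 2 of 21 were higher (Phgdh and Eif4ebp1) and with anti-IgM 1 was higher (Atf3) and 1 lower (Ddit3), against 1.82% of all genes tested that were higher with LPS and 1.91% higher and 1.92% lower with anti-IgM. Averaged over the 3 conditions 7 of 21 were higher and 2 lower, against 10.2% and 5.88% of all genes tested. The marker sums and the sum of Malat1 and Neat1 given above moved between the same libraries.

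**Figure D5:**
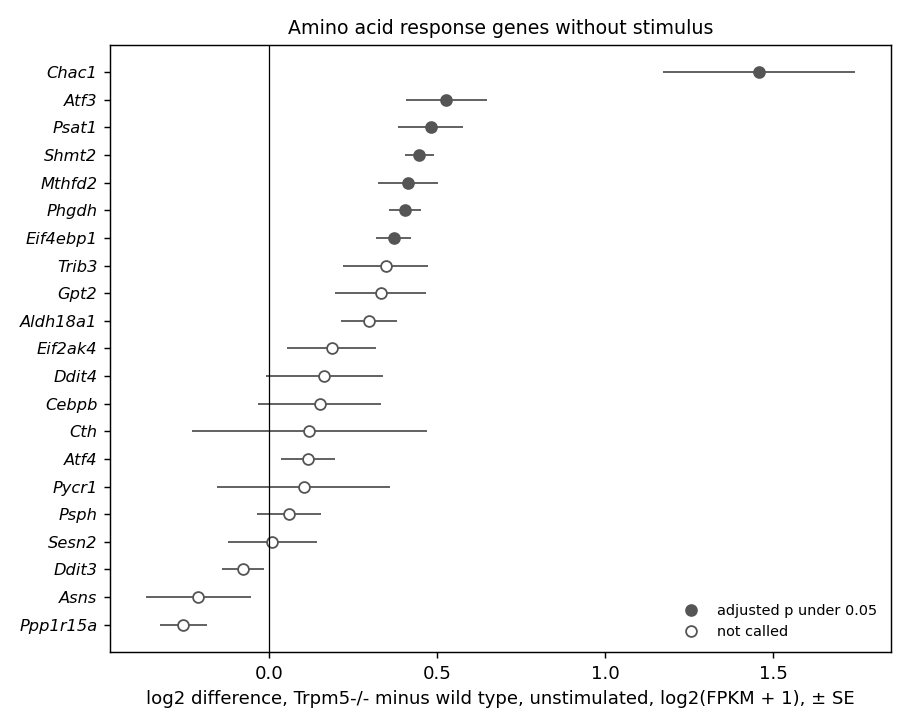
Log2 differences between Trpm5-/- and wild-type cells without stimulus (log2(FPKM + 1), ± SE) for the 21 tested genes of the amino acid response list. Filled points are called at an adjusted p under 0.05, and these 7 genes all lie to the right of 0.

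Of 12 genes listed as possible regulators of these transporters, LPS raised 4 and lowered 6 in wild-type cells. Anti-IgM raised 3 of the 12 and lowered 3. The shares of all genes tested were 35% and 34.4% with LPS and 27.7% and 20.9% with anti-IgM. Myc, whose product is known to bind transporter genes in activated lymphocytes, rose most of the 12. In wild-type cells it went from 56.4 and 58.9 FPKM to 475 and 486 with LPS (3.04) and to 266 and 287 with anti-IgM (2.24). In Trpm5-/- cells it rose by 2.87 and 1.98, and without stimulus it was higher there (71.0 and 71.3 FPKM, 0.30 ± 0.05, adjusted p = 0.0119), a call lost in 5 of 20 alternatives. With LPS 1 of the 12, Nfe2l2, was higher in Trpm5-/- cells (0.36 ± 0.07, adjusted p = 0.0245), against 1.82% of all genes tested. Averaged over the 3 conditions 2 of the 12 were higher and 0 lower, against 10.2% and 5.88%. These were Myc (0.16 ± 0.03, adjusted p = 0.00688) and Nfe2l2 (0.23 ± 0.04, adjusted p = 0.0052). Mxd4, a MYC antagonist, fell by 3.2 with LPS and by 1.63 with anti-IgM in wild-type cells. Tfeb also fell there with LPS (-1.12) and with anti-IgM (-1.21), while Tfe3 rose with LPS (0.74). Nedd4l, a ubiquitin ligase known to remove transporters from the cell surface, fell in wild-type cells from 4.12 and 3.14 FPKM to 1.85 and 1.72 with LPS (-0.73) and to 1.49 and 1.80 with anti-IgM (-0.80), the first of which was not called with quantile normalization.

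Among 36 tested genes of the machinery by which mTORC1 senses amino acids, LPS raised 11 and lowered 13 in wild-type cells (median -0.16), and anti-IgM raised 12 and lowered 5 (median 0.16). Of all genes tested LPS raised 35% and lowered 34.4% and anti-IgM raised 27.7% and lowered 20.9%, so the LPS counts and the anti-IgM rises lay close to the shares of all genes. Sesn1, a leucine-responsive brake on mTORC1, fell from 87.4 and 82.4 FPKM to 19.3 and 20.0 with LPS (-2.06) and to 34.8 and 30.0 with anti-IgM (-1.37). Flcn, the partner that activates the RagC and RagD GTPases, went in opposite directions, to 23.7 and 27.4 FPKM with LPS (-0.45) and to 71.7 and 73.1 with anti-IgM (1.02) from 35.9 and 34.3. Between genotypes without stimulus 0 of the 36 were called by limma, against 6.11% of all genes tested. With LPS 0 were higher and 1 lower in Trpm5-/- cells, against 1.82% and 1.78% of all genes tested. Under anti-IgM 1 was higher and 0 lower, against 1.91% and 1.92%. On the average of 3 conditions 2 were higher and 2 lower, against 10.2% and 5.88%.

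The genes whose values most resembled each transporter over the 12 libraries were found by Pearson's r of log2(FPKM + 1), given as a description because the libraries fall into 3 conditions that most genes follow. For Slc7a5 these included Gtf2e1 (r = 0.998) and Farsb (0.995), and for Slc3a2 they were Mapk6 (0.995), Plk3 (0.993) and Orai1 (0.990). Slc7a6 was most like Ctu2 (0.995), Mpp6 (0.994) and Myc (0.993), and Slc7a1 like the folate carrier gene Slc19a1 (0.994), Mafk (0.993) and Mettl1 (0.993). Those of Slc1a5 included Fam167a (0.983) and Nans (0.977), and Slc1a4 was most like Eif4ebp1 (0.984), Sc5d (0.982) and Insig1 (0.981). Slc38a1 was most like Rap1b (0.986), Sgpl1 (0.982) and Dclre1c (0.979), and Slc38a2 like Eif1ad (0.984), Spata5 (0.980) and Cd83 (0.980). No gene stood among the first 3 of more than 1 transporter, and no transporter stood in the list of another.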

How the data were processed

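Total RNA of 12 marginal zone B cell samples was made into full-length cDNA and Nextera libraries, per the labels' protocols. Programs named in the submitters' processing notes are Cufflinks (2.2.1), Bowtie2 (2.2.3), TopHat2 (2.0.13) and SAMtools (0.1.19), with mm10 as the build. Annotation, strand setting and read totals are not given in the sources at hand. The unit of the deposited values was taken as FPKM from the authors' tools and from the values, whose median ratio between libraries was 1.008 to 1.015, so no scaling was added.

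A limma 3.58.1 model (R 4.3.3, 6 group means, eBayes with a mean-variance trend, two-sided) was fitted to log2(FPKM + 1) of 10797 genes reaching 1 FPKM in 2 or more libraries. Benjamini-Hochberg adjustment ran over all genes tested in each of 12 comparisons. The code was tested on simulated data. Alternatives were a pseudocount of 0.1, no filter, a filter on the mean at 5 FPKM, median-ratio scaling, quantile normalization, no trend, the compared libraries alone, a replicate block, and omission of each library.

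The transporters and gene lists were chosen with earlier results of these data known. Up to 4 called genes of smallest p per direction were named from the other lists. Asns, Atf4 where uncalled, Mthfd2, Ddit3 and Atf4 under anti-IgM, Flcn under LPS, Lck, Zbtb46, and Psat1, Mthfd2 and Atf3 between genotypes were named after their values were seen. Genes of like pattern were the 3 of highest r, with predicted models and receptor segments left out. Some of these genes are not reported here. For 4 listed symbols an older symbol of the files was used (Pqlc2 is Slc66a1).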

Additional observations from a re-analysis of the deposited data

How the results depend on the processing

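Of the 96 transporter values (8 genes in 12 comparisons), each recomputed under 20 alternatives, 1876 of 1920 recomputed values stayed on their side of the threshold, 38 lost a call, 4 gained one and 2 changed direction with a call. Not all of these could move. Omitting a library outside a comparison leaves its difference as it was and changes only the p. For the average of 3 conditions the compared libraries are all 12, so that alternative repeats the main fit. The changes of direction were those of Slc1a5 with LPS under quantile normalization, to -0.28 in wild-type and -0.27 in Trpm5-/- cells. The cause was not tested. In all 58 recomputed values changed sign, 2 of them with a call.

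The number of transporters called between genotypes without stimulus was 2. It was 1 without a filter, 1 with the filter on the mean at 5 FPKM, 1 without the mean-variance trend and 0 with the compared libraries alone, a fit with fewer samples. Leaving out 1 library gave 0 to 1, with 0 without wild-type unstimulated replicate 1 and without Trpm5-/- unstimulated replicate 1 or 2. The number called on the average of 3 conditions was 3 and became 1 with quantile normalization, with 2 to 3 on leaving out 1 library. Elsewhere the counts of called transporters, in either direction, stayed within 1.5 times. The number raised by LPS was less stable than these counts show. Under quantile normalization Slc1a5 counted as called although it fell, in both genotypes, and Slc38a2 lost its LPS call in Trpm5-/- cells. Median-ratio scaling and quantile normalization moved the median of all genes by less than 0.1 on the log2 scale.

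The replicate numbers are shared between groups, but 3 of 15 pairs of groups had same-numbered libraries deviating together (r over 0.1, range -0.17 to 0.20), so the numbers were not taken as pairing. With the replicate block, 1 transporter was called between genotypes without stimulus in place of 2.

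Depth in reads is unknown, and 2 libraries per group limit the precision. With 1 library left out, the lone library of its group is assumed to vary like the other groups.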
